A study of Mus musculus with 2 samples.

Results

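Metallothioneins and redox genes were examined in mouse ES cells with and without the RNA-binding protein gene *Lin28a*. The 10 genes were taken by name. They comprised the metallothioneins *Mt1* and *Mt2*, the thiol enzymes *Prdx1* and *Txn1*, the peroxidase *Gpx4*, the dismutase *Sod1*, the stress-inducible enzymes *Hmox1* and *Nqo1*, and the ferritin chains *Fth1* and *Ftl1*. All 10 were found among the 54146 gene rows of the count tables, and each had at least 200 UMIs over the cells kept. ICM-derived ES cells were grown for 2 days in LIF/2i medium on gelatin with mouse embryonic fibroblast (MEF) feeders. There was 1 inDrop library of wild-type (WT) cells, labelled untreated, and 1 of *Lin28a* knockout (Lin28a KO) cells, each made from a single clone. The study's authors describe the WT clone as transfected. inDrop captures single cells in droplets and tags each captured transcript with a unique molecular identifier (UMI). With 1 library per genotype no test was possible, so genotype, clone and culture cannot be told apart, and every interval below covers counting error only.

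Metallothioneins are small cysteine-rich proteins that bind zinc and copper, and their genes are switched on by metals through the factor MTF1 and also by glucocorticoids. Thioredoxin, the peroxiredoxins and glutathione peroxidases reduce peroxides and oxidised thiols, and superoxide dismutase turns superoxide into peroxide. Ferritin stores iron inside a shell of heavy and light chains. *Nqo1*, *Hmox1*, *Prdx1* and the ferritin genes are textbook targets of the oxidative stress factor NRF2, encoded by *Nfe2l2*.

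The targeted gene was read first. *Lin28a* lies on the minus strand of chromosome 4, at 134003330 to 134018841 in GRCm38. Its 1242 WT UMIs, scaled to 1000000 UMIs of the library (CPM), came to 107 CPM (interval 100.9 to 113), and its 342 Lin28a KO UMIs to 36.6 CPM (32.8 to 40.7). The knockout level was 0.343 times the WT level (0.304 to 0.387). After removal of barcodes under 500 UMIs or with over 20% of UMIs on mitochondrially encoded genes, 1856 WT cells with 11639256 UMIs and 1622 Lin28a KO cells with 9340855 UMIs remained. Median depth was 6140 and 5063.5 UMIs per cell. Barcodes carry ordinal names in both tables, so barcodes shared by the libraries could not be counted. Cells with at least 0.3% of UMIs on the collagen genes *Col1a1*, *Col1a2* and *Col3a1* were set apart as fibroblast-rich, 48 of WT and 23 of Lin28a KO. The study's authors made the knockout in ES cells. Where fibroblast-rich cells are feeders, WT and Lin28a KO therefore name their library and not their genotype. The other cells were sorted by RP share, the share of UMIs on 93 ribosomal protein genes. UMIs of ES markers were found in every class (10 of 10 genes), and summed to between 4553 and 5362 CPM in the classes with at least 5% RP, to 2115 (WT) and 2735 CPM (Lin28a KO) under 5% RP, and to 1047 and 1025 CPM in fibroblast-rich cells. Barcodes under 500 UMIs held 3457 (WT) and 3613 CPM (Lin28a KO) of these markers. The share of UMIs from outside the captured cell was not estimated. The 13 fibroblast markers that the rule did not use summed to 19869 and 16496 CPM in fibroblast-rich cells against 1005 and 975 CPM in the others.

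*Mt2* and *Mt1* are neighbours on chromosome 8 of GRCm38. *Mt2* lies from 94172664 to 94173568 and *Mt1* from 94179082 to 94180327, both on the plus strand with 5513 bases between them. The sequences before their starts are shown because these genes varied with cell class together, and because the metal response element, bound by MTF1, has a known core. RefSeq promoters (GRCm38.p6) were matched for 9 of the 10 genes, with *Hmox1* the exception. The letters TGCACNC and TGCGCNC were searched on both strands in the 250 bases before each start, counting overlapping matches as 1. Capitals mark the matches, on the plus strand of chr8:94178839-94179081 for *Mt1*, which stops before the first annotated exon, and of chr8:94172368-94172617 for *Mt2*.
Mt1: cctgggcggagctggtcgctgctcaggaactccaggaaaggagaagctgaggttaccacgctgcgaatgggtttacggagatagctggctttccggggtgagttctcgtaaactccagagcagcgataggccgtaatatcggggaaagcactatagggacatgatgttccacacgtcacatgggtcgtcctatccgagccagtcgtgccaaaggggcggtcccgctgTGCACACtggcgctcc
Mt2: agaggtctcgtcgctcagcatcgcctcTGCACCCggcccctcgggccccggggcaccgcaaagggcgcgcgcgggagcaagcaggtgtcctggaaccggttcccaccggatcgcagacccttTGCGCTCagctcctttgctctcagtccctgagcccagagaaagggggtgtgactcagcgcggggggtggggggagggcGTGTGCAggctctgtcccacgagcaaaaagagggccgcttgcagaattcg

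The *Mt2* window held 3 matches, 2 of them read on the plus strand, and the *Mt1* window held 1. Bases after the annotated starts were not searched. The counts therefore depend on where each start is placed and do not compare the full promoters of the 2 genes. At least 1 match was present in 21.4% and at least 3 in 0.770% of the 32851 promoters in the table. The windows of the other 7 genes held 0 matches. The core of the antioxidant response element, TGACNNNGC, occurred once each before *Mt2*, *Prdx1* and *Sod1*, and in 10.2% of all promoters. These are matches of letters only.

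Both metallothioneins had ratios of Lin28a KO over WT below 1, by less than 1.5-fold. *Mt1* had 10717 UMIs and 921 CPM (903 to 938) in WT, and 6652 UMIs and 712 CPM (695 to 729) in Lin28a KO. The intervals of the levels did not overlap, and the ratio of Lin28a KO over WT was 0.773 (0.750 to 0.798). *Mt2* had 14816 UMIs and 1273 CPM (1253 to 1294) in WT, and 10441 UMIs and 1118 CPM (1096 to 1139) in Lin28a KO. Its ratio was 0.878 (0.856 to 0.900), nearer to 1 than that of *Mt1*.

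Of the thiol enzymes, 1 had a ratio below 1 and 1 a ratio slightly above it, each by less than 1.5-fold. *Txn1* (chromosome 4 from 57943373 to 57956411, minus strand) encodes thioredoxin, the small protein that passes electrons to oxidised thiols. It stood at 797 CPM (780.8 to 813) in WT and at 614 CPM (598 to 630) in Lin28a KO, a ratio of 0.770 (0.745 to 0.796). *Prdx1* (chromosome 4 from 116685544 to 116700822, plus strand) encodes a peroxiredoxin that thioredoxin recharges. It stood at 1212 CPM (1192 to 1232) and 1276 CPM (1253 to 1299), a ratio of 1.05 (1.03 to 1.08). Over all kept cells these partner genes thus lay on opposite sides of 1. In cells of at least 15% RP both lay below it, *Prdx1* at 0.960 (0.907 to 1.02) and *Txn1* at 0.691 (0.642 to 0.744). Under 5% RP both lay above it, at 1.88 (1.11 to 3.40) and 1.06 (0.585 to 2.05).

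Over all kept cells *Gpx4* and *Sod1* had ratios of Lin28a KO over WT above 1, by about the same factor and by less than 1.5-fold. *Gpx4* (chromosome 10 from 80047166 to 80056439, plus strand) encodes the selenoenzyme that reduces lipid peroxides. It had 446 CPM (434 to 459) in WT and 536 CPM (521 to 551) in Lin28a KO, a ratio of 1.20 (1.16 to 1.25). *Sod1* (chromosome 16 from 90220754 to 90226329, plus strand) encodes the copper and zinc superoxide dismutase. It had 1007 CPM (988 to 1025) and 1191 CPM (1169 to 1213), a ratio of 1.18 (1.15 to 1.21). Within the classes of RP share described below the ratios were mostly nearer to 1. *Gpx4* was at 1.21 (1.12 to 1.30), 1.17 (1.10 to 1.25) and 0.991 (0.922 to 1.07) in cells of 5 to 10%, 10 to 15% and at least 15% RP, and *Sod1* at 1.09 (1.04 to 1.15), 1.04 (0.997 to 1.09) and 1.10 (1.05 to 1.15). The highest class held 242 of 1856 WT and 390 of 1622 Lin28a KO cells.

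The stress-inducible enzymes were the lowest in UMIs. *Hmox1* (chromosome 8 from 75093621 to 75100589, plus strand), the haem-degrading oxygenase, had 115 CPM (109 to 122) in WT and 117 CPM (110.3 to 124) in Lin28a KO. Its ratio of 1.01 (0.936 to 1.10) had an interval that held 1, and median of ratios scaling put it at 0.980. Without the fibroblast-rich cells the *Hmox1* ratio was 1.09 (0.999 to 1.18). In cells of 5 to 10%, 10 to 15% and at least 15% RP it was 1.17 (1.03 to 1.34), 1.15 (1.01 to 1.32) and 1.02 (0.828 to 1.27). *Nqo1* (chromosome 8 from 107388225 to 107403206, minus strand), a quinone reductase, had 53.3 CPM (49.2 to 57.6) and 61.8 CPM (56.8 to 67.0), a ratio of 1.16 (1.03 to 1.30). In the same 3 classes *Nqo1* was at 1.41 (1.19 to 1.68), 1.34 (1.12 to 1.60) and 0.884 (0.560 to 1.40).

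The ferritin heavy chain gene *Fth1* (chromosome 19 from 9980598 to 9985098, plus strand) had 1323 CPM (1302 to 1344) and 1313 CPM (1290 to 1336), a ratio of 0.993 (0.969 to 1.02). The light chain gene *Ftl1* (chromosome 7 from 45457944 to 45459884, minus strand) had 1214 CPM (1194 to 1234) and 1305 CPM (1282 to 1329), a ratio of 1.08 (1.05 to 1.10). Without the fibroblast-rich cells, which were more numerous in WT, the ratio was 1.25 (1.21 to 1.28) for *Ftl1* and 1.06 (1.03 to 1.08) for *Fth1*. In cells of 5 to 10%, 10 to 15% and at least 15% RP *Ftl1* was at 1.34 (1.28 to 1.41), 1.17 (1.12 to 1.22) and 1.02 (0.973 to 1.07). *Fth1* was at 1.03 (0.990 to 1.08), 1.10 (1.06 to 1.15) and 0.982 (0.933 to 1.03) there.

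None of the 10 genes was past 1.5-fold in either direction, the size used here to describe a difference. Over the 9835 genes with at least 200 UMIs, 6.49% were past 1.5-fold higher and 8.45% past 1.5-fold lower in Lin28a KO. The median ratio was 1.03 over the 10 genes and 1.01 over all genes. Ratios were taken within a gene, and differences between genes in how well their transcripts are captured were not estimated.

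**Figure D1:**
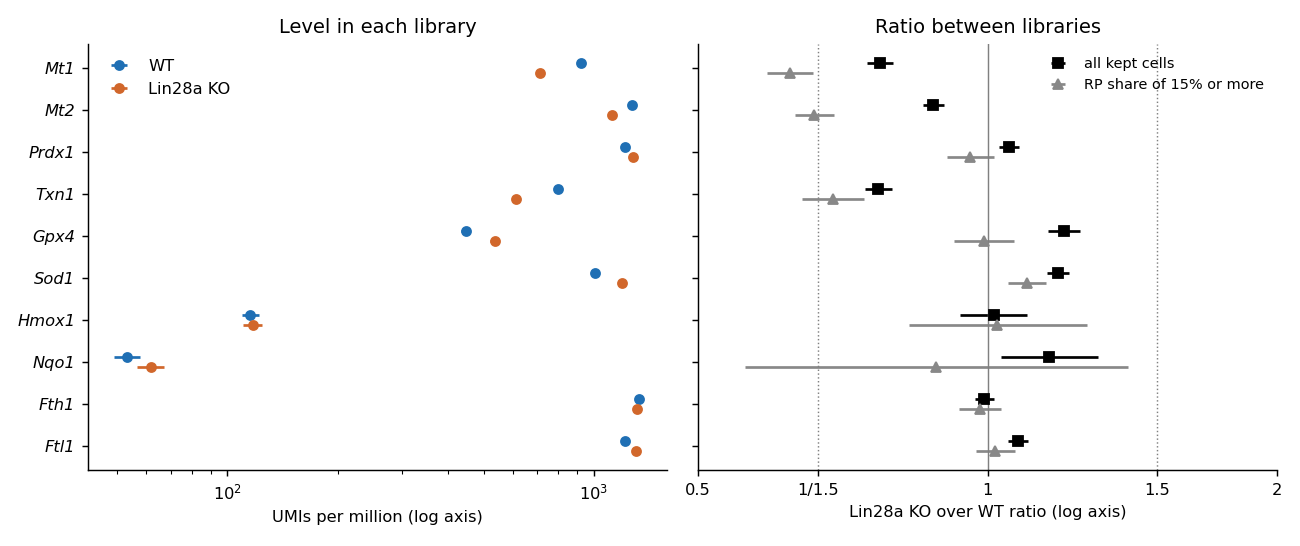
Left, CPM (log axis) of the 10 genes over all kept cells of the WT and Lin28a KO libraries. Right, the ratio of Lin28a KO over WT (log axis) over all kept cells (squares) and in cells with at least 15% RP (triangles), with dotted lines at 1.5-fold. Bars are 95% intervals of counting error. The squares of *Mt1* and *Txn1* lie furthest to the left, at 0.773 and 0.770, and the *Mt1* and *Mt2* triangles lie past the dotted line at 0.624 and 0.661.

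The values of *Ftl1* and *Gpx4* are uncertain, since their UMIs may be divided among near-copies of the same sequence. Transcripts of other genes that matched a member over at least 200 bases with at least 90% identity were collected from the annotation, and 15 such genes were found. *Ftl1* had 8 of them. *Ftl1-ps1* (chromosome 13), annotated as protein coding and 99.6% identical over 910 bases, held 47690 WT and 42525 Lin28a KO UMIs, more than the 14125 and 12193 UMIs of *Ftl1* itself. *Ftl1* thus took 15.7% and 12.9% of the UMIs of its group. The group as a whole had 7747 CPM in WT and 10103 CPM in Lin28a KO, a ratio of 1.30 (1.29 to 1.32) instead of 1.08. *Gpx4* took 61.7% and 62.6% of the UMIs that it shared with *Gpx4-ps2*, and the ratio was 1.18 (1.15 to 1.22) with the copy. For *Sod1*, *Prdx1*, *Txn1* and *Fth1* the gene itself held between 87.2% and 95.5%, and with copies *Fth1* stood at 1.05 (1.02 to 1.07). No near-copy was found for *Mt1*, *Mt2*, *Hmox1* or *Nqo1*.

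**Figure D2:**
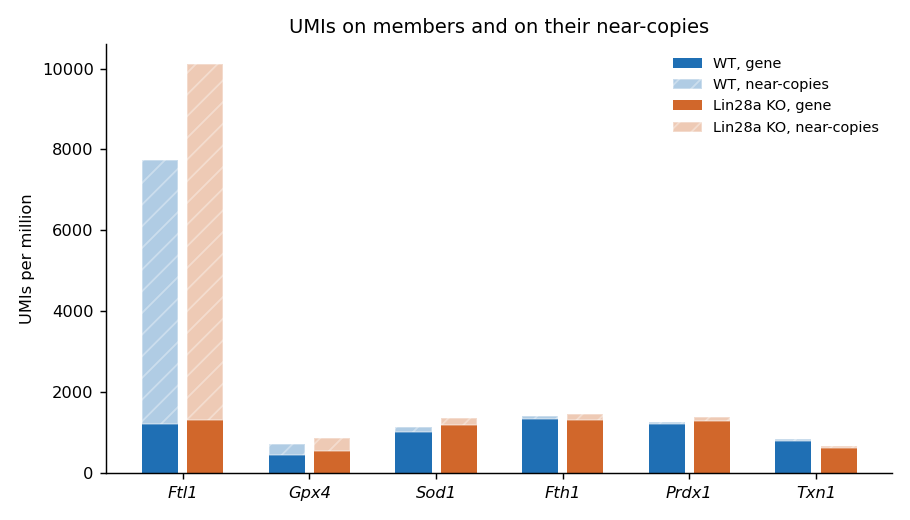
CPM on 6 genes (solid) and on their near-copies (hatched, stacked on top) in all kept cells of each library. The *Ftl1* bars reach 7747 in WT and 10103 in Lin28a KO, and most of their height is near-copies.

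The genes differed strongly between classes of RP share, and most of them in the same way in both libraries. The classes held 82, 801, 683 and 242 WT cells and 218, 382, 609 and 390 Lin28a KO cells at under 5%, 5 to 10%, 10 to 15% and at least 15% RP. Median mitochondrial share moved the other way, from 4.45% to 0.188% in WT and from 5.88% to 0.276% in Lin28a KO between the lowest and the highest class. Cells under 5% RP were also shallow, with medians of 792.5 (WT) and 1207 UMIs (Lin28a KO) against 5566 or more in the other classes. The part of depth and mitochondrial share in the values below was not tested beyond the restrictions on depth that are given.

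*Mt1* was higher in each class of higher RP share. In WT it had 186 CPM (101.8 to 313) under 5%, 704 CPM at 5 to 10%, 926 CPM at 10 to 15% and 1629 CPM (1571 to 1688) at 15% or more. In Lin28a KO the levels were 174, 511, 709 and 1016 CPM (975 to 1058). The order of classes was the same, and the libraries were furthest apart in the highest class. *Mt2* went from 293 over 997 and 1318 to 2153 CPM in WT, and from 519 over 904 and 1135 to 1422 CPM in Lin28a KO. The ratio of Lin28a KO over WT in cells of 15% RP or more was 0.624 (0.590 to 0.658) for *Mt1* and 0.661 (0.631 to 0.692) for *Mt2*. Those were the only 2 of the 10 genes past 1.5-fold lower in that class, where 14.9% of all genes were. *Txn1* stood just inside at 0.691 (0.642 to 0.744). In the class of 5 to 10% the ratios of *Mt1*, *Mt2* and *Txn1* were 0.726, 0.907 and 0.721, and at 10 to 15% they were 0.766, 0.862 and 0.818. Under 5% RP the direction was another for *Mt2*, at 1.77 (1.13 to 2.91) from 22 WT UMIs, while *Mt1* was at 0.935 (0.512 to 1.83) and *Txn1* at 1.06 (0.585 to 2.05). In that class *Prdx1* was at 1.88 (1.11 to 3.40), *Gpx4* at 2.13 (1.02 to 5.13) and *Fth1* at 0.501 (0.330 to 0.774).

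Cells of at least 15% RP were compared with cells of 5 to 10% within each library, a comparison chosen after the levels were seen. *Mt1* was higher by 2.31-fold (2.20 to 2.43) in WT and 1.99-fold (1.86 to 2.12) in Lin28a KO, and *Mt2* by 2.16-fold (2.07 to 2.25) and 1.57-fold (1.49 to 1.66). *Sod1* was higher by 2.18-fold (2.08 to 2.29) and 2.20-fold (2.10 to 2.32), to levels of 1741 and 1913 CPM. *Gpx4* was higher by 2.03-fold (1.89 to 2.18) and 1.67-fold (1.55 to 1.80), and *Ftl1* by 2.41-fold (2.30 to 2.53) and 1.83-fold (1.75 to 1.92). Those 5 of 10 genes were past 1.5-fold higher in both libraries. Of all genes, 25.1% in WT and 23.2% in Lin28a KO were past 1.5-fold higher in the same comparison. The median ratio was 1.65 and 1.42 over the 10 genes, against 0.811 and 0.749 over all genes. With the near-copies, *Ftl1* was higher by 2.32-fold and 2.08-fold. Among cells of 5000 to 10000 UMIs those 5 genes were again past 1.5-fold higher, with *Mt1* at 2.10 and 1.85, where 24.8% and 23.4% of all genes were.

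The other 5 genes were not past 1.5-fold higher in either library. *Fth1* went the same way by a smaller factor, higher by 1.34-fold (1.28 to 1.41) and 1.28-fold (1.22 to 1.34). *Txn1* ratios were 1.14 (1.07 to 1.21) and 1.09 (1.01 to 1.17), and those of *Prdx1* were 1.01 (0.961 to 1.06) and 0.897 (0.853 to 0.944). *Hmox1* was at 0.753 (0.628 to 0.898) and 0.657 (0.552 to 0.782). *Nqo1* was the lowest, at 0.356 (0.248 to 0.498) and 0.223 (0.157 to 0.310), from 59.5 and 84.0 CPM at 5 to 10% RP to 21.2 and 18.7 CPM at 15% or more. So 1 of 10 genes in WT and 2 of 10 in Lin28a KO were past 1.5-fold lower, where 42.4% and 45.6% of all genes were. The ferritin chains, and likewise the enzymes regarded as NRF2 targets, did not move by a common factor.

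**Figure D3:**
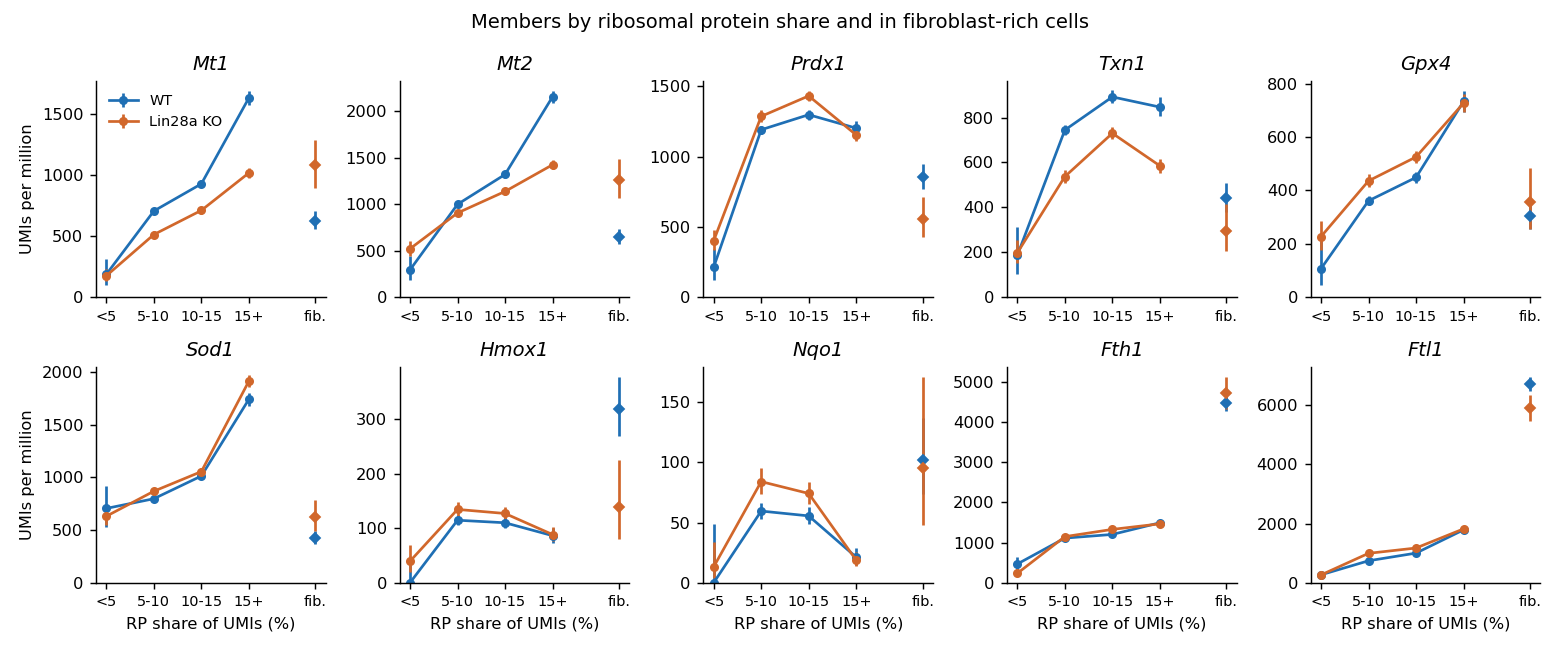
CPM of each gene in 4 classes of RP share (joined points) and in fibroblast-rich cells (diamonds, fib.), for WT and Lin28a KO, each gene on its own axis from 0. Bars are 95% intervals of counting error. *Mt1*, *Mt2*, *Gpx4*, *Sod1* and *Ftl1* are highest at 15% RP or more among the joined points, *Hmox1* and *Nqo1* are highest at 5 to 10%, and the *Fth1* and *Ftl1* diamonds lie far above the joined points. Near-copies are not included. With them *Ftl1* had 13776 CPM in WT fibroblast-rich cells against 13099 CPM at 15% RP or more. In Lin28a KO it had 13056 against 15415 CPM, the other way round.

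Cells under 5% RP had lower CPM of nearly every gene. Relative to the remaining cells without the fibroblast-rich ones, 8 of the 9 genes with enough counts (*Nqo1* was short of them) were past 1.5-fold lower in WT and 10 of 10 in Lin28a KO, where 53.9% and 40.1% of all genes with enough counts were. WT ratios ran from 0.173 (0.0987 to 0.281) for *Prdx1* to 0.684 (0.512 to 0.895) for *Sod1*. *Hmox1* had 0 UMIs in the 82 WT cells, which is at least 2.71-fold lower with 3 counts allowed. *Nqo1* also had 0 UMIs there, at least 1.30-fold lower on the same limit and so not shown to be past 1.5-fold. Lin28a KO ratios ran from 0.179 (0.140 to 0.226) for *Fth1* to 0.519 (0.447 to 0.598) for *Sod1*. The WT value of *Sod1* lay just short of 1.5-fold and passed it, at 0.645, with mitochondrial and RP genes left out of the denominator and, at 0.520, with at least 1000 UMIs per cell. *Mt2* was at 0.224 in WT, with 22 UMIs, and 0.457 in Lin28a KO, with 158 UMIs. The metallothionein pair was split there in Lin28a KO, with *Mt1* at 0.240 (0.180 to 0.314) and *Mt2* at 0.457 (0.388 to 0.535). With a limit of 10% RP in place of 5%, 5 of 10 genes in WT and 3 of 10 in Lin28a KO were past 1.5-fold lower, where 12.5% and 14.6% of all genes were. Under that limit *Hmox1* (1.10 in WT and 1.11 in Lin28a KO) and *Nqo1* (1.31 and 1.45) lay above 1 in the low-RP cells. Among barcodes under 500 UMIs, which were left out, *Sod1* had 1697 and 1898 CPM and *Mt1* 540 and 468 CPM.

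Counted on each gene's own row, the ferritin chains had the highest ratios of fibroblast-rich over other cells among the 10 genes. *Fth1* had 4481 CPM (4283 to 4685) in the WT and 4717 CPM (4328 to 5131) in the Lin28a KO fibroblast-rich cells. That was 3.73-fold (3.56 to 3.91) and 3.71-fold (3.40 to 4.05) higher than in the other cells of the same library. *Ftl1* had 6712 and 5898 CPM, higher by 6.70-fold (6.43 to 6.98) and 4.73-fold (4.37 to 5.11). Summed with its near-copies, *Ftl1* was higher by 1.83-fold (1.79 to 1.88) and 1.30-fold (1.23 to 1.36), below *Hmox1* and *Nqo1* in WT. In Lin28a KO that was below *Nqo1* and *Mt1* over all cells. Those genes lay at 0.630 and 0.977 once the 1 cell that carried each of them was left out. The *Ftl1* group was not computed without a cell, so it is not ranked against these values. For *Fth1* the copy changed little, to 3.78-fold and 3.92-fold.

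*Hmox1* was higher by 2.97-fold (2.47 to 3.55) in the WT fibroblast-rich cells, at 320 CPM, from UMIs in 35 of 48 cells. In Lin28a KO it had 16 UMIs in 6 of 23 cells and a ratio of 1.19 (0.677 to 1.94). *Nqo1* had ratios of 1.98 (1.43 to 2.70) and 1.56 (0.773 to 2.81). In Lin28a KO 7 of its 11 UMIs came from 1 cell, and without that cell the ratio was 0.630. The Lin28a KO fibroblast-rich cells were shallower, with a median of 2295 against 8131.5 UMIs in WT.

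The enzymes that were abundant in the other cells had ratios below 1 in fibroblast-rich cells. *Sod1* was at 0.414 (0.356 to 0.479) in WT and 0.522 (0.408 to 0.658) in Lin28a KO. *Txn1* was at 0.543 (0.468 to 0.627) and 0.478 (0.331 to 0.669), *Prdx1* at 0.700 (0.629 to 0.776) and 0.433 (0.333 to 0.553), and *Gpx4* at 0.672 (0.560 to 0.799) and 0.662 (0.474 to 0.899). *Mt2* was at 0.498 (0.441 to 0.561) in WT and 1.13 (0.951 to 1.33) in Lin28a KO, and *Mt1* at 0.671 (0.593 to 0.757) and 1.52 (1.26 to 1.82). A single Lin28a KO cell of 6650 UMIs held 49 of the 124 *Mt1* and 51 of the 145 *Mt2* UMIs. Without it the ratios were 0.977 and 0.777. In WT the cell richest in *Mt1* held 46 of its 270 UMIs, and the cell richest in *Mt2* held 33 of its 279. Without those cells the WT ratios were 0.573 and 0.448. The Lin28a KO library over the WT library within the fibroblast-rich cells was 1.72 (1.38 to 2.14) for *Mt1* and 1.95 (1.58 to 2.39) for *Mt2*. Without the Lin28a KO cell of 6650 UMIs, and with every WT cell kept, these were 1.11 and 1.34. In the same comparison over all fibroblast-rich cells *Hmox1* was at 0.435 (0.242 to 0.731) and *Prdx1* at 0.649 (0.489 to 0.848), and the other 6 genes lay between 0.671 and 1.47. Every one of these ratios was lower without the Lin28a KO cell richest in the gene. That is nearly fixed in advance, since only the Lin28a KO side lost a cell. *Nqo1* went from 0.937 to 0.379, with 4 Lin28a KO UMIs left, and *Txn1* from 0.671 to 0.568. In all, 4 genes in WT and 4 in Lin28a KO were past 1.5-fold higher, against 22.6% and 12.7% of all genes, and of the Lin28a KO genes *Mt1* and *Nqo1* were past it through 1 cell each. A further 3 and 4 were past 1.5-fold lower, against 40.3% and 44.1%. Summed with its copy, *Gpx4* was at 0.623 in WT and 0.728 in Lin28a KO, which makes it past 1.5-fold lower in WT and no longer so in Lin28a KO.

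**Figure D4:**
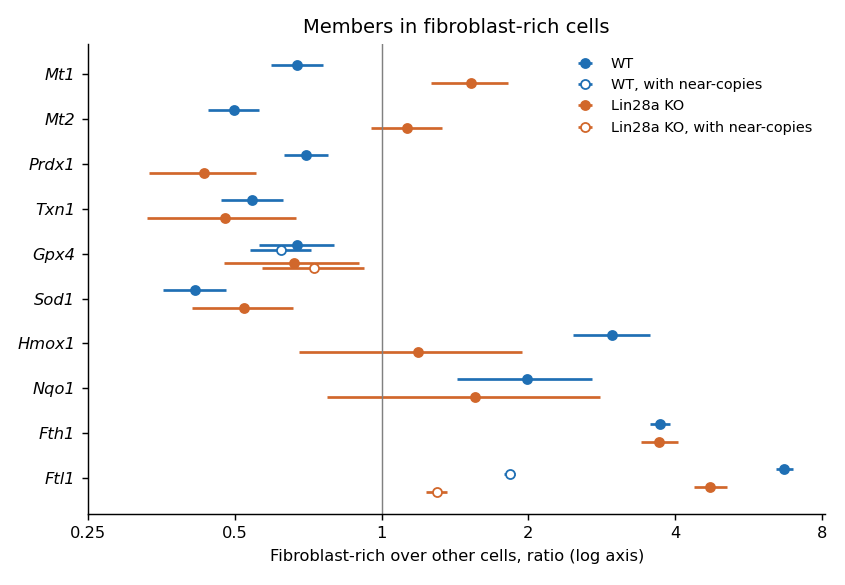
Ratio of fibroblast-rich over other cells (log axis) within the WT and the Lin28a KO library, with 95% intervals of counting error. Open circles show *Gpx4* and *Ftl1* summed with their near-copies. *Fth1* and *Ftl1* lie at 3.71 or more, and the open *Ftl1* circles lie at 1.83 and 1.30.

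Variation from cell to cell was read after each cell outside the fibroblast-rich class was thinned to 2000 UMIs, which left 1600 WT and 1097 Lin28a KO cells. The variance over the mean is 1 for counting error alone. It is higher for genes of higher mean, so each gene is set beside the 100 genes nearest to it in mean. *Mt2* had 1.73 in WT and 1.83 in Lin28a KO, ranks 15 and 14 among its nearest genes, whose medians were 1.29 and 1.38. *Mt1* had 1.66 and 1.53, ranks 8 and 9, with medians of 1.23 and 1.23. A WT cell held 0 to 16 *Mt1* UMIs with a median of 1, and 22.8% of cells held 0. *Sod1* had 1.38 and 1.51, ranks 30 and 39. *Hmox1* and *Nqo1*, with means under 0.25 UMIs, stayed between 1.02 and 1.09, where the medians of their nearest genes were 1.02 to 1.06.

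On each gene's own row, the ferritin genes had their largest spread in Lin28a KO, where a few cells were very rich in *Ftl1*. The *Ftl1* row held 15.7% of the UMIs of its near-copy group in WT and 12.9% in Lin28a KO. That group as a whole had 10103 CPM in Lin28a KO, so cells rich on the row were not shown to be rich in the group. Spread and cell counts were not computed with the near-copies. *Ftl1* had a variance over the mean of 1.39 in WT and 4.62 in Lin28a KO, ranks 19 and 4 among its nearest genes, with up to 10 and up to 64 UMIs per cell. *Fth1* had 1.17 and 1.82. In 4 Lin28a KO cells at least 1% of all UMIs, before thinning, were *Ftl1*, against a median of 0.108%, and in WT 0 of 1600 cells of that depth reached it. With shallower cells included, down to 500 UMIs, 5 of 1808 WT and 6 of 1599 Lin28a KO cells reached it, the WT ones at 542 to 1380 UMIs. At 1000 UMIs per cell the variance over the mean of *Ftl1* was 1.56 in WT and 2.43 in Lin28a KO. The 4 deep Lin28a KO cells held between 0 and 2 UMIs of the 10 ES markers and between 43 and 136 UMIs of the 16 fibroblast markers, but only 1 to 7 collagen UMIs, which left them under the collagen limit. Among cells with 0 collagen UMIs (1411 and 957 cells) *Ftl1* had 1.36 and 1.42 and *Fth1* 1.28 and 1.34, while *Mt1* had 1.76 and 1.46 and *Mt2* 1.83 and 1.63.

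*Mt1* and *Mt2* varied together. Across cells at this depth Pearson's r was 0.379 (Spearman's rho 0.293) in WT and 0.311 (0.267) in Lin28a KO, as a description of cells that share a library. At 1000 UMIs per cell r was 0.198 and 0.175. The 45 pairs among the 10 genes had a median r of 0.0369 and 0.0303. *Fth1* and *Ftl1* reached an r of 0.375 in Lin28a KO with a rho of 0.168. The correlation of *Mt1* with RP share was 0.328 and 0.329, that of *Mt2* 0.374 and 0.188, and that of *Sod1* 0.410 and 0.469. WT cells with 0 *Mt1* UMIs held 1.78 *Mt2* UMIs on average and those with 6 or more held 5.44. In Lin28a KO the averages were 1.64 and 4.62. Median RP share was higher as well, from 9.66% to over 15% in WT and from 10.3% to 16.1% in Lin28a KO, so its part in the joint variation was not separated. *Prdx1* lay between 2.24 and 2.50 UMIs over the same WT cells and between 2.05 and 2.65 over the Lin28a KO cells.

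**Figure D5:**
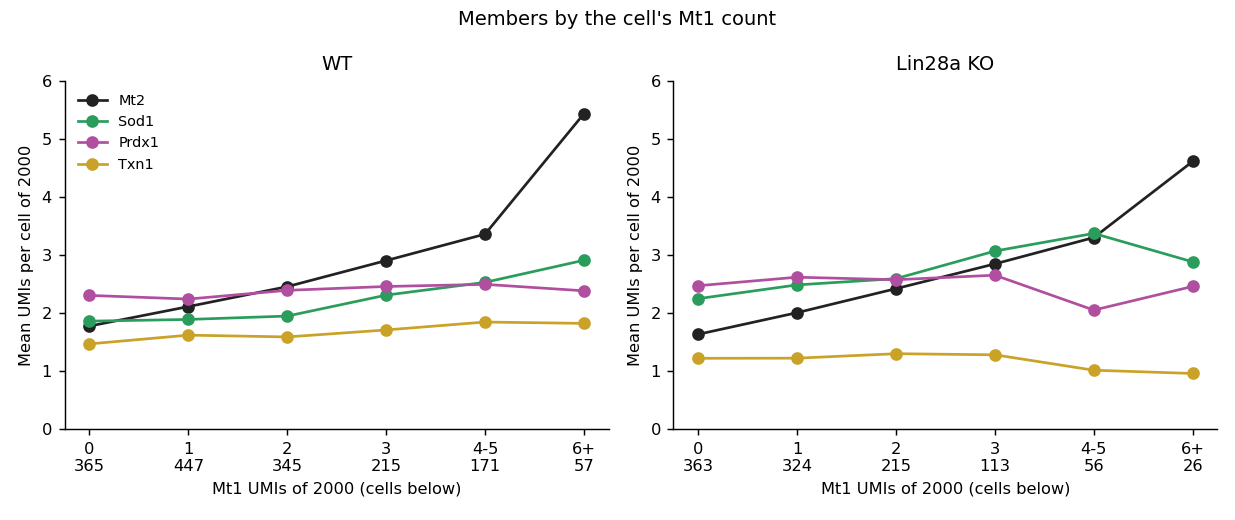
Mean UMIs per cell of *Mt2*, *Sod1*, *Prdx1* and *Txn1*, at 2000 UMIs per cell, by the number of *Mt1* UMIs in the cell, for WT and Lin28a KO. The number of cells stands under each class. *Mt2* goes from 1.78 to 5.44 in WT and from 1.64 to 4.62 in Lin28a KO, while *Prdx1* lies between 2.24 and 2.50 in WT and between 2.05 and 2.65 in Lin28a KO.

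Genes most like *Mt1* were sought over 10 points, the 4 RP classes and the fibroblast-rich class of each library, on log2(CPM + 1), among 9831 genes. They were *Rps15a-ps6* (Pearson's r of 0.987, Spearman's rho of 0.952), *Cox5b* (0.984, 0.964) and *Cox4i1* (0.981, 0.976), a ribosomal protein pseudogene and subunits of cytochrome c oxidase. These points share libraries and the division by RP share.

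The wider redox and metal lists held 96 genes, 81 of them with at least 200 UMIs. In Lin28a KO over WT 4 of the 81 were past 1.5-fold higher and 4 past 1.5-fold lower, against the 6.49% and 8.45% of all genes given above, and their median ratio was 1.05 against 1.01 over all genes. Of the 18 thioredoxins and peroxiredoxins and of the 5 genes of superoxide and peroxide removal, 0 passed in either direction. The glutathione enzymes had 2 of 17 higher and 0 lower, the NRF2 pathway 2 of 18 higher and 2 lower, iron and haem handling 0 of 13 higher and 1 lower, and metallothioneins and metal transport 0 of 17 higher and 1 lower. The lowest ratio was that of *Tfrc*, the transferrin receptor, which went from 42.8 to 21.9 CPM (ratio 0.513, 0.434 to 0.605). *Bach1*, a repressor of *Hmox1*, followed at 0.532 (0.463 to 0.610) and *Nfe2l2* itself at 0.618 (0.570 to 0.670), from 154 to 95.2 CPM. The highest was *Gpx2*, a glutathione peroxidase, from 21.5 to 58.6 CPM (ratio 2.73, 2.34 to 3.18), followed by *G6pdx* at 1.60 (1.40 to 1.82) and *Tkt* at 1.57 (1.44 to 1.71), enzymes of the pentose phosphate pathway. Without the fibroblast-rich cells those 6 ratios lay between 0.505 and 0.625 for the lower genes and between 1.57 and 2.70 for the higher ones. Without those cells 2 other glutathione peroxidases, named here after their values were seen, lay above *G6pdx* and *Tkt*, *Gpx3* at 2.08 (1.13 with those cells) and *Gpx7* at 1.98 (1.54 with them).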

How the data were processed

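Single-cell RNA-seq libraries of WT and Lin28a KO ES cells were made by inDrop. A published inDrop pipeline gave the raw UMI counts that the authors deposited, 1 column per barcode. Per the labels the build was mm10 and Seurat 2.3.4 was used; the aligner and annotation are not given in the sources used here. GENCODE M21 (GRCm38) gave names for 54079 of 54146 identifiers, version dropped. The files hold 12079546 and 10027710 UMIs over 4329 and 6060 barcodes. The members, gene lists and classes were chosen with earlier results of these data known.

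Counts were summed over cells and scaled to CPM, with exact Poisson, exact binomial (Clopper-Pearson) and exact conditional ratio intervals at 95%. PCR duplicates are covered by UMIs, but intervals cover counting error only. Counts of genes past 1.5-fold used genes with at least 200 UMIs and 5 expected UMIs in the smaller class, with 0.5 added. For 0 UMIs the limit was 3 UMIs. Thinning drew 2000 UMIs without replacement (seed 1). Near-copies were found with megablast. Doublets were kept, and Scrublet called 27 WT and 18 Lin28a KO cells. Genes named are the 10 members, *Lin28a*, the collagen genes, the 3 highest and 3 lowest list genes, the 3 genes most like *Mt1* (those for *Hmox1*, at 0 UMIs in 1 class, are not given), and, chosen after the data were seen, near-copies, *Gpx3* and *Gpx7*. Code was tested on simulated libraries with counting error only. Of the 50 genes changed at each of the folds 0.25, 0.5, 2 and 4, 49 or 50 were past 1.5-fold among 9835 genes. Folds nearer to 1 were not simulated. Tools were scanpy 1.11.5, scipy 1.17.1, matplotlib 3.10.9, pandas 2.3.3 and numpy 2.4.6 under Python 3.11.15.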

Additional observations from a re-analysis of the deposited data

Results flagged for a closer look

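*Mt1* had a ratio of fibroblast-rich over other cells of 0.671 in the WT library and 1.52 in the Lin28a KO library, opposite directions under the same contrast. The difference was not tested, since there is 1 library of each kind. For feeder cells the name of the library is not the genotype of the cell. The Lin28a KO value rests on 1 cell, which held 39.5% of the *Mt1* UMIs of the 23 cells, and without it the ratio was 0.977. In WT the ratio without the cell richest in *Mt1* was 0.573.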

How the results depend on the processing

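For Lin28a KO over WT, 0 of 10 genes were past the fold in either direction under each of the 13 alternatives run. At 1.5-fold, between 4.91% (median of ratios scaling) and 9.37% (cells of 5000 to 10000 UMIs) of all genes were past it higher. Between 7.64% (denominator without mitochondrial and RP genes) and 15% (cells of 5000 to 10000 UMIs) were past it lower. A fold of 2 passed 1.15% and 1.78% of all genes, and 0 of 10 was fixed there by the main result. *Mt1* stayed between 0.747 and 0.789 and *Txn1* between 0.744 and 0.788. None of these alternatives compared the libraries class by class of RP share. By class *Mt1* ran from 0.624 at 15% RP or more, past 1.5-fold, to 0.935 under 5%. *Txn1* ran from 0.691 to 1.06 in the same classes. With an RP limit of 10%, the genes lower in low-RP cells numbered 5 in WT and 3 in Lin28a KO (12.5% and 14.6% of all genes), and *Hmox1* (1.10 and 1.11) and *Nqo1* (1.31 and 1.45) changed direction. At the limit of 5% the genes lower in WT numbered 9 of 9 with enough counts under a denominator without mitochondrial and RP genes (56.1%) and 8 of 8 with at least 1000 UMIs (62.4%). For high against middle RP share in Lin28a KO, a fold of 2 left 1 gene higher and 1 lower (10.6% and 35.2% of all genes), and a denominator without mitochondrial and RP genes left 1 lower (42.7%). For fibroblast-rich cells, the genes lower in WT numbered 5 with at least 1000 UMIs (40.5% of all genes) and 6 with a collagen limit of 1% (43.4%), while in Lin28a KO both left 3 lower (44.5% and 48.5%) in place of 4, and with the limit of 1% 3 of the 9 genes with enough counts were higher (10.9%). A limit of 0.1% gave 4 lower in WT (39.6%) and 3 in Lin28a KO (39.7%). With near-copies summed, 4 were lower in WT (40.3%), and 3 higher and 3 lower in Lin28a KO (12.7% and 44.1%). A fold of 2 in the same fibroblast comparison left 2 higher and 2 lower in Lin28a KO (7.36% and 29.6%). A variance over the mean above 1.5 was found for 2 genes in WT and 5 in Lin28a KO at 2000 UMIs, for 2 and 4 with a second draw (*Sod1* at 1.39 in place of 1.51 in Lin28a KO), for 1 and 1 at 1000 UMIs (*Ftl1* in both), and for 1 in Lin28a KO among cells with 0 collagen UMIs. The lowest genes counted at 2000 UMIs, *Mt1* in WT and *Sod1* in Lin28a KO, ranked 46 of 3682 and 147 of 3576 genes with a mean of at least 0.1 UMIs. With the second draw *Mt1* was lowest, at 35 of 3683 and 96 of 3570. At 1000 UMIs *Ftl1* ranked 26 of 1967 and 20 of 1905. Ranks were not computed for the cells with 0 collagen UMIs. The causes were not tested, apart from a larger fold, which passes fewer genes by construction. The alternatives with near-copies, with 0 collagen UMIs and at least 2000 UMIs, those without 1 cell, and all those of the comparison of RP classes above 5% were chosen after seeing the data. No paired analysis was possible because each genotype is 1 library. Depth limits *Hmox1* and *Nqo1* most, above all in the 82 WT cells under 5% RP.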
